A study of Mus musculus with 83 samples.

Results

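Potassium channel genes were followed in 4 kinds of cortical neuron at 2 ages. All genes whose mouse symbol starts with Kcn were taken, leaving out Kcnc1 to Kcnc4 and Kcng4 and the antisense and pseudogene names that end in os, -ps or as. Of 92 such genes in the table, 70 had a mean of at least 1 CPM over all pools (CPM is a gene's count relative to the library total, scaled to a common depth), and these 70 are described here out of 48795 genes in all. The 22 others include the antisense loci Kcnmb4os1 and Kcnmb4os2, whose names end in a digit. Among the 22 Kcnk16 had no count, and Kcnk18 lay closest under the floor with 0.983 CPM. Kcnk6 was the lowest gene above it, with 1.19 CPM.

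The tissue was frontal cortex of male C57BL/6 mice that were young (2 months) or old (22 months), with no other treatment in the labels. Pyramidal cells (PYC) and interneurons stained for parvalbumin (PV), somatostatin (SST) or vasoactive intestinal peptide (VIP) were cut by laser from 14 µm sections, with 125 cells in a pool and 1 library from each pool. Every type had 12 old pools, and there were 9 young pools of PYC, SST and VIP and 8 of PV. Cells were recognised by the marker RNAs Slc17a7, Pvalb, Sst and Vip, so each pool may also hold what the laser took from the tissue around a cell, and more cells of another type cannot be told apart from more RNA per cell.

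A potassium channel lets potassium ions leave the cell and so sets the resting potential, ends the action potential and limits repetitive firing. Voltage-gated (Kv) channels are made of pore subunits that assemble in fours, often with auxiliary subunits that change their gating or trafficking, while calcium- and sodium-activated, inwardly rectifying (Kir) and two-pore leak (K2P) channels answer to other signals. Fast-spiking PV interneurons are known for potassium currents that allow brief, frequent spikes, and Kv1 channels are known for their place at the axon initial segment and along the axon.

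Library totals ran from 1.46 to 27.2 M counts (median 6.99 M). The 5 listed PV markers summed to between 697 and 1519 CPM in PV pools and to at most 182 CPM in any other pool. The 7 listed pyramidal markers summed to means of 3729 (old) and 4214 (young) CPM in PYC pools, 3121 and 3349 CPM in VIP pools, 1940.4 and 2139 CPM in SST pools and 1742 and 1486 CPM in PV pools, with none of the 7 at 0 in any group. In 6 libraries the mitochondrially encoded genes took 0.215% to 2.51% of counts, against 8.31% to 17.0% elsewhere: VIP young replicates 1 and 3, PYC young 2, SST young 6, PYC old 10 and VIP old 11. VIP old replicates 9 and 11 held over 300 CPM of Sst. The 83 pools came from 12 old and 9 young mice, so mice gave more than 1 pool. The labels do not say which pools share a mouse, so all pools entered the tests as independent.

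Promoter sequences are shown for members that turned out high or low in PV pools, since PV pools had the most calls. RefSeq windows (250 bases before to 50 after a gene's start, build GRCm38.p6) matched 48 of the 70 genes, with 68 windows. Of the genes called in PV, 13 had a single window, and the 2 with the highest mean level in each direction are printed, a choice made with calls and motif matches known. Capitals mark GGGCGG or its reverse complement. Kcna2 (chr3:107101317-107101616, plus strand) and Kcnj3 (chr2:55435720-55436019, plus strand) were higher in PV pools. Kcnd3 (chr3:105451640-105451939, plus strand) and Kcnf1 (chr12:17176839-17177138, minus strand) were lower.
Kcna2: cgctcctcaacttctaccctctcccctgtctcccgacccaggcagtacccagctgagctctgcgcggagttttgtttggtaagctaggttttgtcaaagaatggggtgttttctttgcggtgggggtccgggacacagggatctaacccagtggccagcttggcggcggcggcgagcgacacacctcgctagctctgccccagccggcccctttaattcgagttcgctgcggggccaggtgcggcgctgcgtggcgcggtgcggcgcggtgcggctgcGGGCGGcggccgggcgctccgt
Kcnj3: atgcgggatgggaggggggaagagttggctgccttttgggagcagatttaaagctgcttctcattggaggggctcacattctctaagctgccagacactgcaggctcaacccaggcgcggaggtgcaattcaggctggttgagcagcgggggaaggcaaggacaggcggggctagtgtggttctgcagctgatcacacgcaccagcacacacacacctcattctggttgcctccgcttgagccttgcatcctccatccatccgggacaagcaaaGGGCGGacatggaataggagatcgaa
Kcnd3: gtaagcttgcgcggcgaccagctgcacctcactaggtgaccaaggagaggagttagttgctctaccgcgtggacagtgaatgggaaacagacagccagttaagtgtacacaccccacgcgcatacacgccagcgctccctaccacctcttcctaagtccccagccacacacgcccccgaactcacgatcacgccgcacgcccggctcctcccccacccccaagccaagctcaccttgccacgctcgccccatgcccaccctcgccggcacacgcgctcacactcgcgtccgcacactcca
Kcnf1: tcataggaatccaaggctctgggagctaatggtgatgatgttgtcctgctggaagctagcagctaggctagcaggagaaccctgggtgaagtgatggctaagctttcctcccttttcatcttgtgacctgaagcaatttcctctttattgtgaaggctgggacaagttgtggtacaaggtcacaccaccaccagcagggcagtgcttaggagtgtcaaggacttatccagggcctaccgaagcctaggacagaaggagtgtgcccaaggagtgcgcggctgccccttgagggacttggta
GGGCGG, on either strand, was in 50% of the 68 windows and in 35.7% of all 32851 RefSeq windows. Among the 13 single-window genes it was in 5 of the 7 that were higher in PV pools and in 2 of the 6 that were lower. TATAAA was in 4.41% of the 68 windows and 13.6% of all windows, CACGTG in 5.88% and 7.15%, and TGACGTCA and TCAAGGTCA were in none of the 68 and in 1.79% and 0.423% of all. The 68 windows had a median GC content of 61.2%, against 52.7% for all, and a match is a description of letters, not of binding.

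Together the 70 genes took 5384 ± 551 CPM (SD, n = 21) in VIP, 5644 ± 508 CPM (SD, n = 21) in SST, 6459.97 ± 874 CPM (SD, n = 21) in PYC and 7383 ± 324 CPM (SD, n = 20) in PV pools. Of the 70, 34 had a count in every pool and 9 in fewer than 42 of the 83 pools (Kcnk13, Kcnu1, Kcnq1, Kcnk6, Kcna5, Kcnh8, Kcnj14, Kcnrg and Kcnmb1). Per kilobase of merged exons, high mean levels were those of Kcnab2 (79.1 CPM per kb), Kcna2 (58.1), Kcnj9 (35.2) and Kcna1 (34.2). In GRCm38, Kcna2 lies on chromosome 3, 107101146 to 107115005, Kcnab2 on chromosome 4, 152390742 to 152477871, Kcnip1 on chromosome 11, 33629339 to 33993152 and Kcnip3 on chromosome 2, 127456498 to 127522094. Kcnab2 encodes a beta subunit of Kv1 channels, Kcna1 and Kcna2 encode Kv1 pore subunits and Kcnj9 encodes a Kir3 subunit of G-protein-gated channels.

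**Figure D1:**
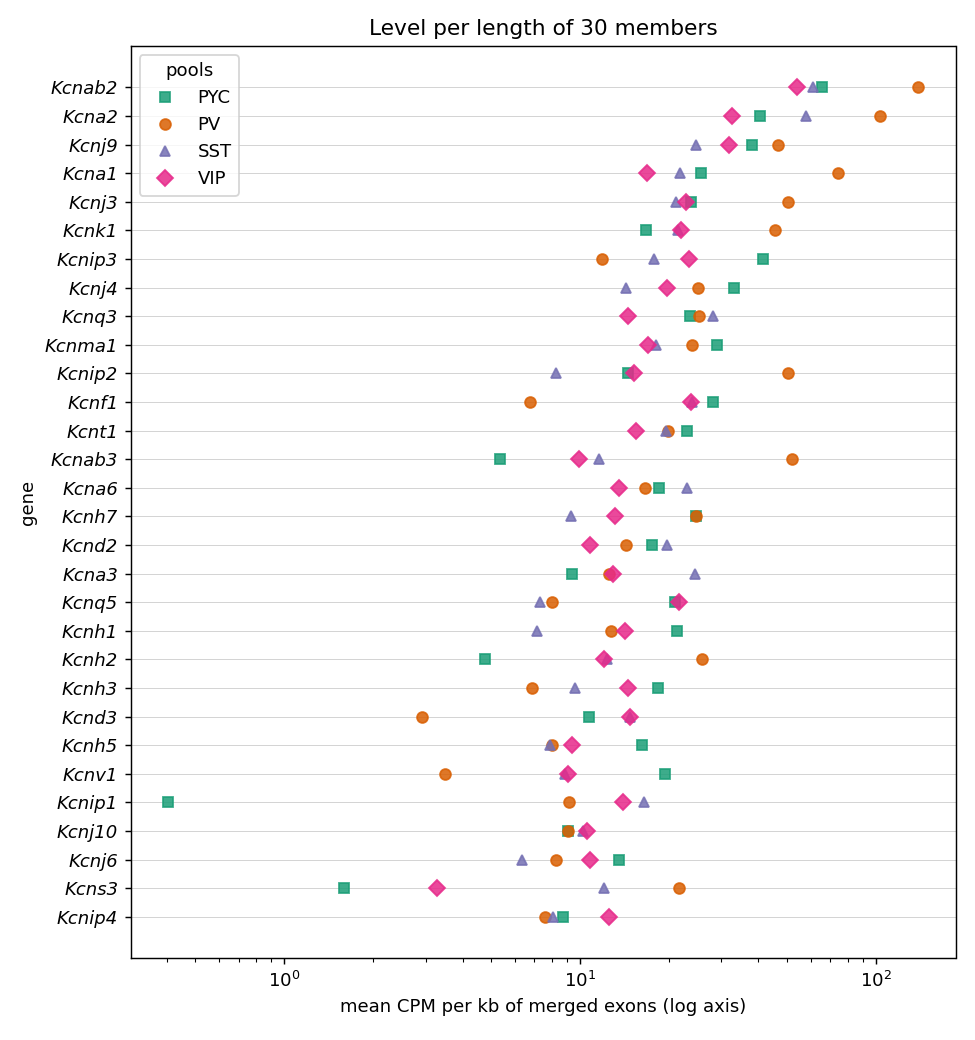
Mean CPM per kb of merged exons (log axis) of 30 members, the highest by this measure among those reported singly, 1 symbol for each neuron type with both ages together. Kcnab2 and Kcna2 lie highest, and in both the PV symbol lies to the right of the other types.

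Levels differed among the 4 types for 46 of 70 genes (edgeR quasi-likelihood F-test, adjusted p under 0.05 over all 18536 genes tested), against 26.3% of all genes tested. Each type was then compared with the mean of the other 3, and a call needed both an adjusted p below 0.05 and a change of 1 or more, up or down, on the log2 scale. In PV pools 14 of 70 genes were higher, against 4.53% of all genes, and 12 were lower, against 5.93%. In PYC pools 8 were higher (all genes 4.76%) and 6 lower (3.49%). In SST pools 4 were higher (3.85%) and 8 lower (1.24%). In VIP pools 8 were higher (6.42%) and 2 lower (1.46%). With RLE size factors the VIP split was 10 (all genes 6.98%) and 1 (1.35%). Among genes with a count in at least 42 pools, a limit added after the calls were seen, 61 members remained to be tested. Of these, 6 were higher in PYC (all such genes 2.54%), 3 in SST (1.86%), 6 in VIP (2.38%) and 14 in PV pools (3.43%). Between pairs of types, 36 genes differed between PV and VIP (all genes 17%), 32 between PYC and PV (16.9%), 26 between PYC and SST (10.6%) and between PV and SST (10.7%), 19 between PYC and VIP (9.52%) and 14 between SST and VIP (6.93%). For 19 of the 70 genes no pair was separated. The share of all genes without a separated pair is not given here, so this count is not set against it.

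**Figure D2:**
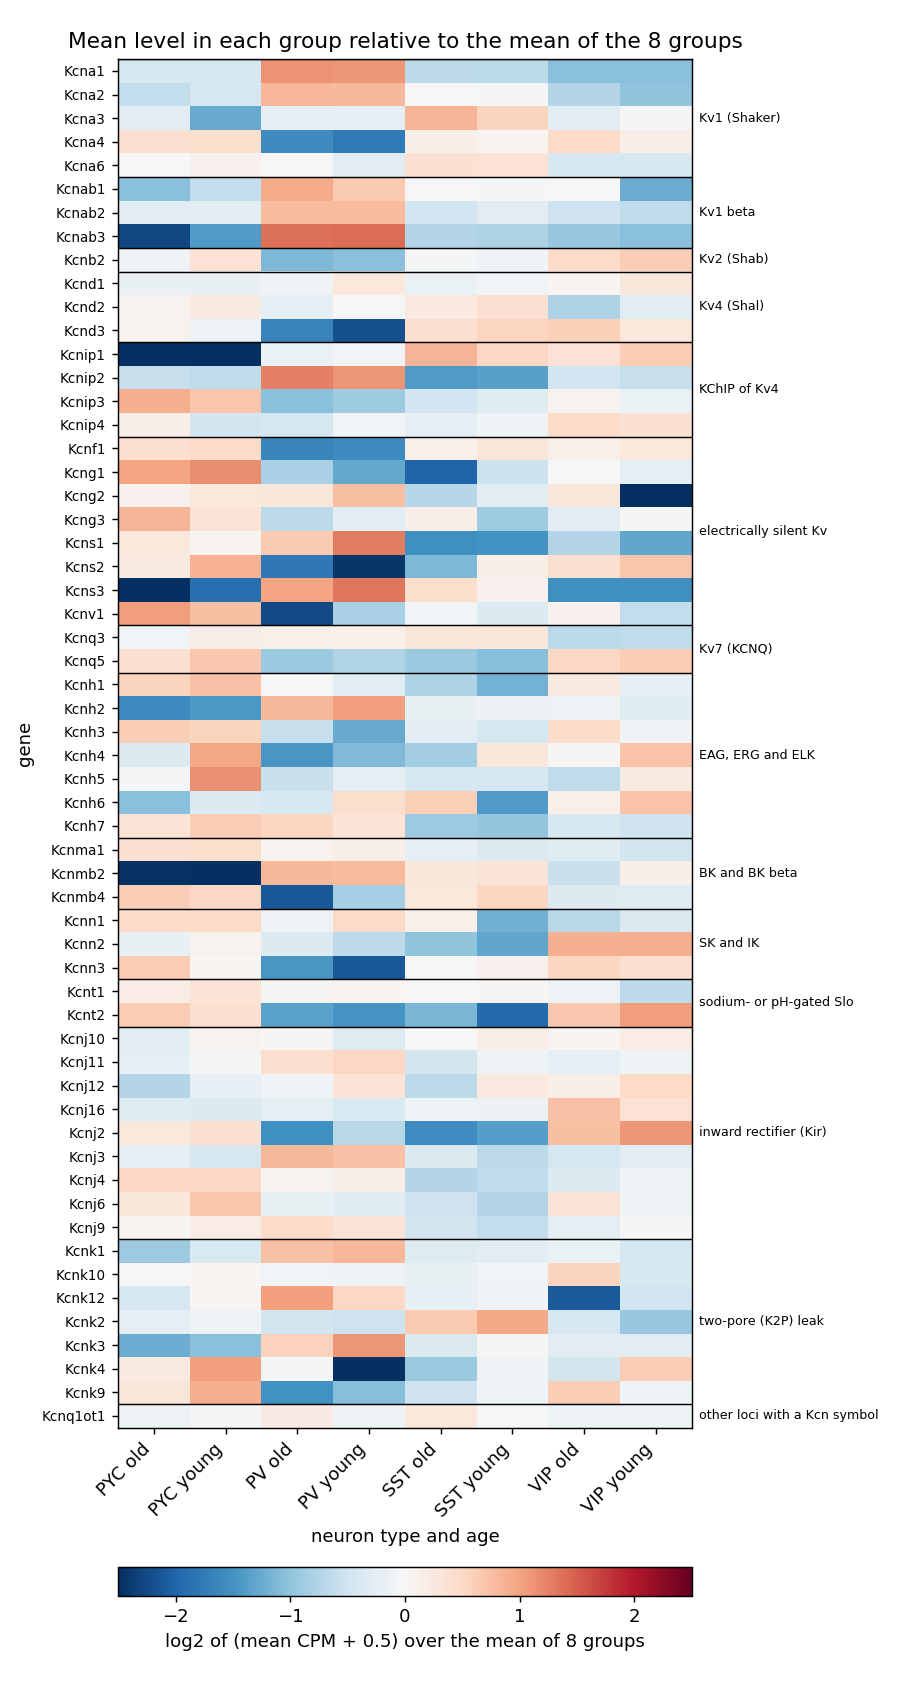
Mean CPM of each group relative to the mean of the 8 groups (log2 with 0.5 CPM added, colours end at 2.5 either way) for members reported singly that had a count in at least 42 pools, grouped by family. In each type the old and young columns mostly share their colour, and the PV columns stand out in the Kv1, Kv1 beta and silent Kv rows.

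The Kv1 pore genes summed to 1717 ± 199 CPM (SD, n = 20) in PV pools and to means of 1011, 770.2 and 610.3 CPM in SST, PYC and VIP pools. Kcna2, a pore subunit, ran from 832 to 1669 CPM with a median of 1211 in PV, from 414 to 964 CPM with a median of 714 in SST, from 233 to 814 CPM with a median of 471 in PYC and from 116 to 531 CPM with a median of 391 in VIP pools. Of 20 PV pools, 19 lay above every pool of the other types, and all 6 pairs of types were separated, in the order PV, SST, PYC, VIP. The log2 fold change was 1.37 ± 0.09 (SE) in PV (adjusted p = 2.1e-27) and -1.03 ± 0.10 (SE) in VIP (adjusted p = 1.5e-15), and the VIP value was -0.96 with RLE size factors, short of the fold limit, and had an adjusted p of 0.16 with limma-voom. Kcna1, which encodes another pore subunit, averaged 356 ± 98.03 CPM (SD, n = 20) in PV pools, and 16 of the 20 lay above all others. It averaged 123, 104 and 80.2 CPM in PYC, SST and VIP pools, which were not separated from their neighbours in that order. Its log2 fold change was 1.91 ± 0.14 (SE) in PV (adjusted p = 3.1e-22) and -1.11 ± 0.16 (SE) in VIP (adjusted p = 5.5e-08). Without the 6 low-mitochondrial libraries the VIP value was -0.98, short of the fold limit.

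Other Kv1 pore genes had other orders. Kcna4, a rapidly inactivating subunit, fell to 8.43 ± 10.8 CPM (SD, n = 20) in PV pools, against 36.97 CPM in PYC, 35.4 in VIP and 29.7 in SST pools, with a log2 fold change of -1.98 ± 0.50 (SE) (adjusted p = 0.0019). Kcna3 was higher in SST pools, at 46.5 ± 26.3 CPM (SD, n = 21), with a log2 fold change of 1.07 ± 0.31 (SE) (adjusted p = 0.014), a call that neither old pools alone (adjusted p = 0.054) nor young pools alone (0.41) gave. For Kcna3 SST was separated from PYC pools but not from PV or VIP pools (VIP adjusted p = 0.21). Kcna6 averaged 137 CPM in SST, 109 in PYC, 98.5 in PV and 80.1 in VIP pools and was not called in any type.

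All 3 genes of the Kv1 beta subunits were higher in PV pools. Kcnab3 averaged 148 ± 45.2 CPM (SD, n = 20) there, against 33.2, 28.3 and 15.4 CPM in SST, VIP and PYC pools, and 16 of 20 PV pools lay above all others. Its log2 fold change of 2.70 ± 0.32 (SE) (adjusted p = 2.2e-10) was the largest of the 14 in PV. Its exons overlap those of Kcnab3os on the other strand, and no source used here gives the strand setting of the counting. Kcnab2 averaged 772 ± 134 CPM (SD, n = 20) in PV pools, with 19 of 20 above every other pool and a log2 fold change of 1.29 ± 0.09 (SE) (adjusted p = 6.0e-26). Kcnab1 averaged 133 ± 41.99 CPM (SD, n = 20) there, with a log2 fold change of 1.38 ± 0.18 (SE) (adjusted p = 2.9e-10).

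**Figure D3:**
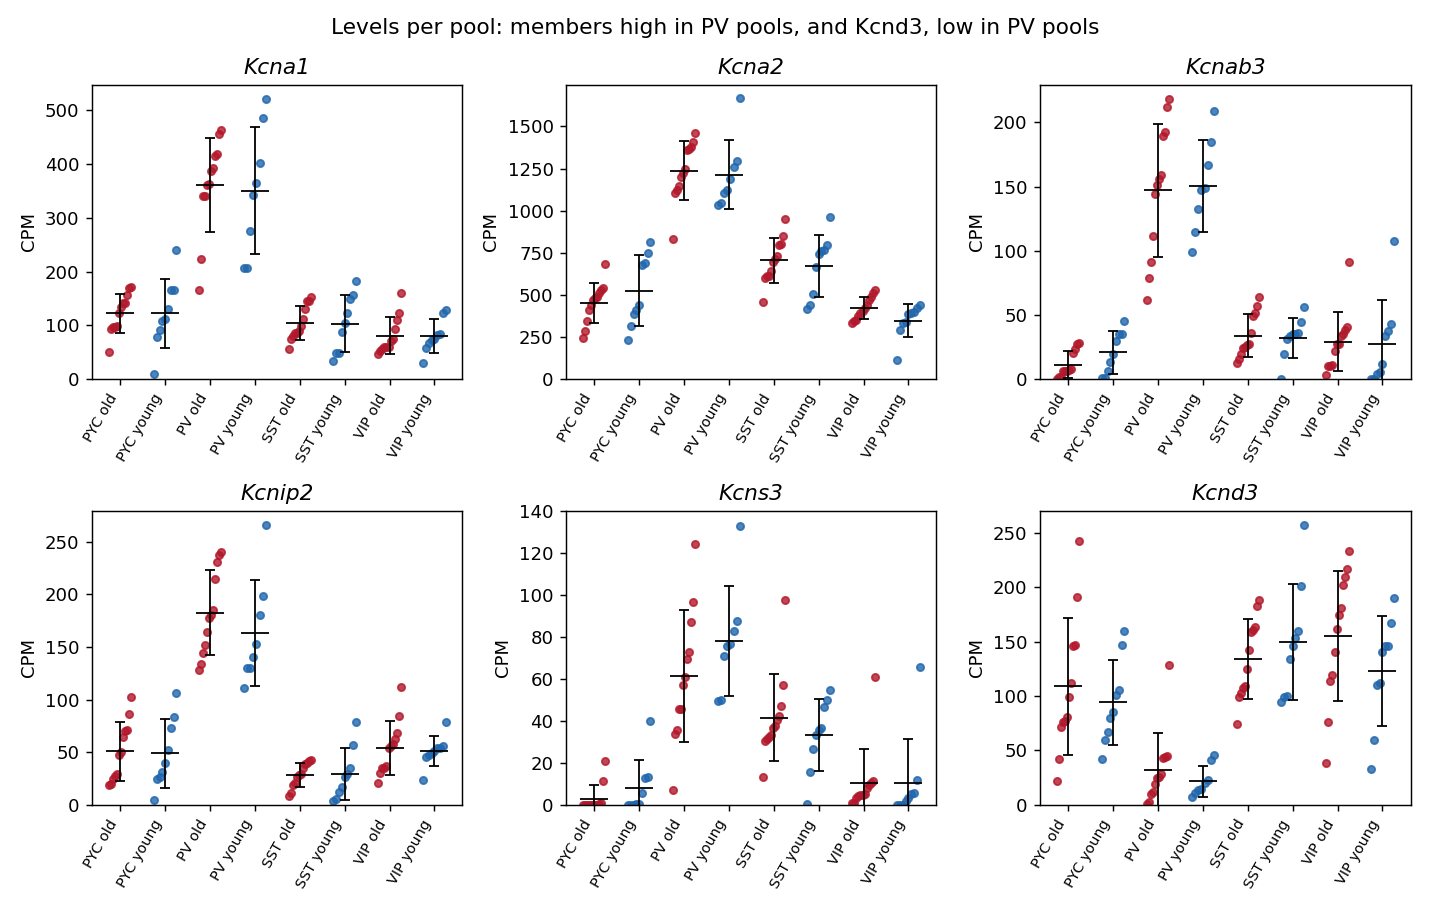
CPM of every pool by type and age for 6 members, with old pools in red, young pools in blue and black bars for the mean and SD of each group (bars are cut at 0). PV pools are high for Kcna1, Kcna2, Kcnab3, Kcnip2 and Kcns3 and low for Kcnd3, at both ages.

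Of the 10 genes of Kv2 channels, which carry slow delayed rectifier current, and of their silent partners, 4 were lower and 2 higher in PV pools. Silent subunits form no channel alone and join Kv2 subunits. Kcnb2 fell by 1.23 on the log2 scale in PV pools (adjusted p = 8.2e-06), to 33.6 ± 24.2 CPM (SD, n = 20). Among the 8 silent subunits Kcnf1 was lower in PV (-1.82 ± 0.20 (SE), adjusted p = 1.6e-13), with PV pools from 1.895 to 67.5 CPM with a median of 28.7 and PYC pools from 90.9 to 210.3 CPM with a median of 123, so that the 2 types did not overlap. Kcnv1 (-1.64 ± 0.36 (SE)) and Kcns2 (-2.29 ± 0.47 (SE)) were lower in PV too, while Kcnv1 (1.62 ± 0.29 (SE)), Kcng1 (1.95 ± 0.40 (SE)) and Kcns2 (1.27 ± 0.36 (SE)) were higher in PYC pools. Kcns2 was also higher in VIP pools (1.20 ± 0.36 (SE)). Kcns3 went the other way: it averaged 68.1 ± 30.04 CPM (SD, n = 20) in PV, 38 CPM in SST, 10.3 in VIP and 5.03 in PYC pools, with log2 fold changes of 2.59 ± 0.48 (SE) in PV (adjusted p = 2.3e-05) and -2.64 ± 0.63 (SE) in PYC (adjusted p = 0.0013). Kcns1 was higher in PV (1.91 ± 0.43 (SE)) and lower in SST pools (-1.68 ± 0.51 (SE)). It averaged 28.3 CPM in PV, 16.4 in PYC, 7.25 in VIP and 4.69 in SST pools. PV was not separated from PYC for Kcns1 (adjusted p = 0.37), nor from SST for Kcns3 (adjusted p = 0.44). PYC was not separated from VIP for Kcng1 (adjusted p = 0.14) or Kcns2 (0.98), nor from SST for Kcns2 (0.15). For Kcns2 PV was separated from each of the other types, and no other pair was separated. Calls ended in old pools alone for Kcns1 in PV (adjusted p = 0.12) and in SST (0.17), and for Kcns2 in PV (0.071). In young pools alone the PYC calls of Kcns3 (adjusted p = 0.36) and Kcnab3 (0.38) ended, as did that of Kcns1 in SST (0.37).

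Kv4 channels carry the A-type current of dendrites, and KChIP proteins bind their pore subunits. Kcnd3 ran from 0.535 to 129 CPM with a median of 21.1 in PV pools and averaged 142 ± 57.1 CPM (SD, n = 21) in VIP, 141 CPM in SST and 103 in PYC pools. It was lower in PV by a log2 fold change of -2.18 ± 0.26 (SE) (adjusted p = 1.5e-10), and its exons overlap those of Kcnd3os on the other strand. Kcnd2 and Kcnd1 were called in no type. The 4 KChIP genes each had their own order. Kcnip1 averaged 2.51 ± 4.598 CPM (SD, n = 21) in PYC pools, against 102 CPM in SST, 86.5 in VIP and 56.8 in PV pools, which were not separated from each other. The 6 GABAergic markers followed the same split, with sums of 82.7 to 297 CPM in PYC pools and 1105 to 4240.3 CPM in the others, and their part in the difference was not tested. Its log2 fold change was -5.11 ± 0.39 (SE) in PYC (adjusted p = 8.5e-20). Because PYC lowers the mean of log values, Kcnip1 was called higher in SST (2.12 ± 0.25 (SE)), VIP (1.82 ± 0.25 (SE)) and PV (1.17 ± 0.26 (SE)), although the PV mean lies under the 63.6 CPM that the other 3 types average. Kcnip2 averaged 175 ± 44.3 CPM (SD, n = 20) in PV pools, of which 19 of 20 lay above all others, and was lowest in SST pools at 28.7 CPM, with log2 fold changes of 2.11 ± 0.18 (SE) (adjusted p = 1.7e-19) and -1.46 ± 0.21 (SE) (adjusted p = 5.1e-08). Kcnip3 was highest in PYC pools, at 148 ± 42.4 CPM (SD, n = 21), and lowest in PV pools, at 41.98 CPM, with log2 fold changes of 1.32 ± 0.17 (SE) (adjusted p = 2.6e-10) and -1.04 ± 0.20 (SE) (adjusted p = 1.9e-05). Kcnip4 averaged between 27.6 and 45.2 CPM and no pair of types was separated.

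**Figure D4:**
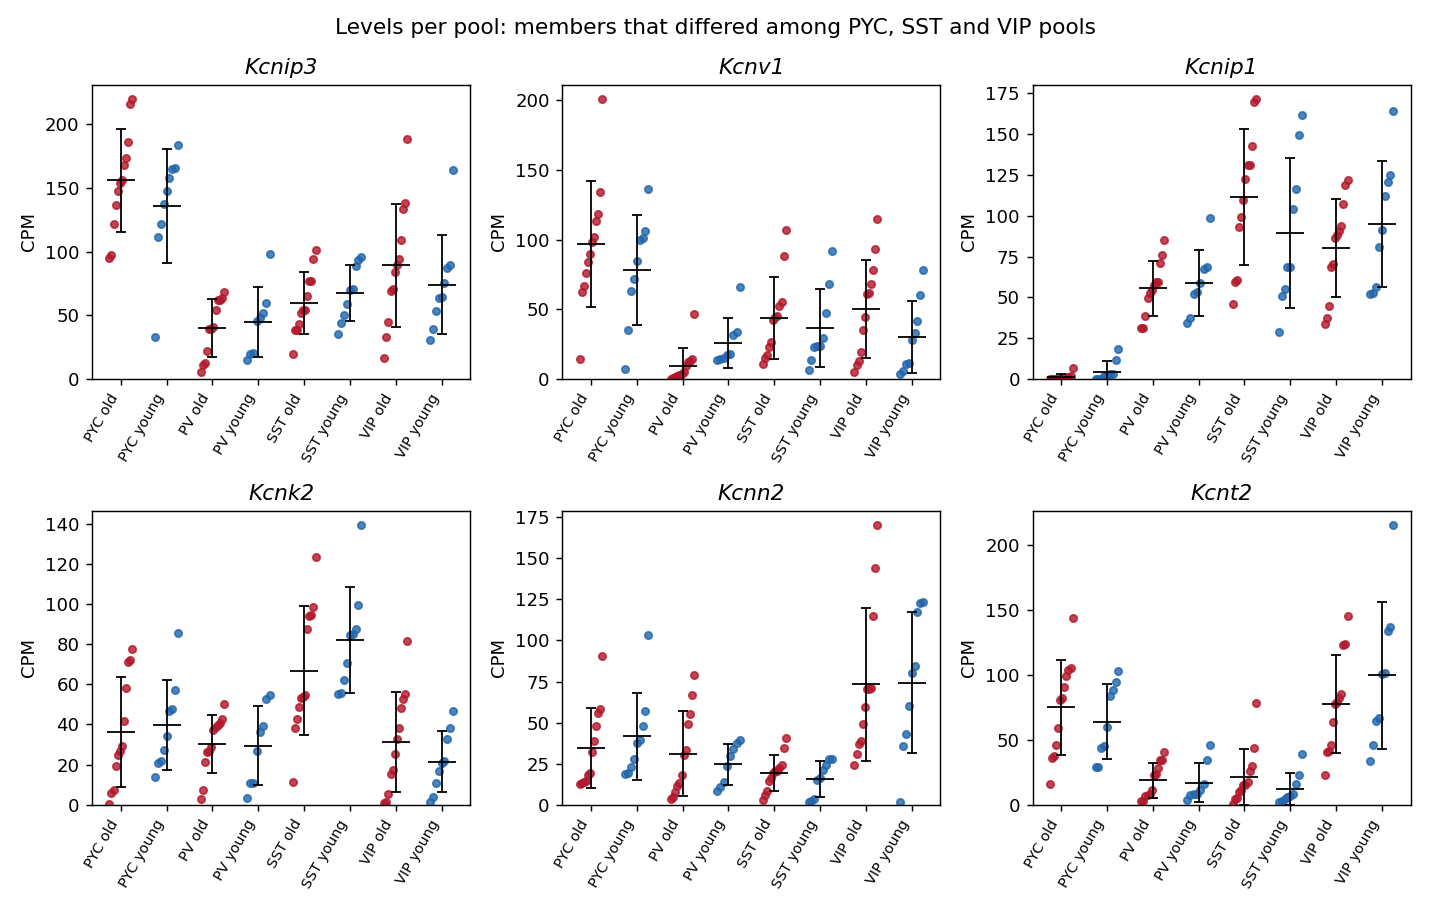
CPM of every pool by type and age for 6 members, with old pools in red, young pools in blue and black bars for the mean and SD of each group (bars are cut at 0). Kcnip3 and Kcnv1 are highest in PYC pools, and Kcnip1 is near 0 in PYC pools. The highest mean lies in SST pools for Kcnk2 and in VIP pools for Kcnn2 and Kcnt2, in each case not separated from PYC pools.

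Kv7 channels carry the M-current, which damps repetitive firing. Kcnq3, a Kv7 pore subunit, averaged 415 CPM in SST, 369.7 in PV and 345 in PYC pools and 213 ± 87.8 CPM (SD, n = 21) in VIP pools, and VIP was separated from all 3 without passing the fold limit. Kcnq5 fell into pairs, with 166 CPM in VIP and 161 in PYC pools and 61.7 in PV and 56.2 in SST pools. PYC and VIP did not pass a test of their difference (log2 fold change 0.03 ± 0.25 (SE)), nor did PV and SST (0.27 ± 0.25).

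Genes of sodium- and calcium-activated channels were high in different types. Kcnt2, a sodium-activated pore subunit, averaged 87.2 ± 46.9 CPM (SD, n = 21) in VIP and 70.4 ± 33.3 CPM (SD, n = 21) in PYC pools, against 18.1 and 17.6 CPM in PV and SST pools. It was called higher in VIP (1.66 ± 0.24 (SE), adjusted p = 3.5e-08) and PYC (1.28 ± 0.24 (SE), adjusted p = 2.4e-05) and lower in SST (-1.64 ± 0.29 (SE)) and PV (-1.30 ± 0.29 (SE)). The pyramidal marker sums given above are also high in these 2 types, and their part in the values of Kcnt2, Kcnq5 and Kcns2 was not tested. Kcnn2, a small-conductance (SK) calcium-activated subunit, averaged 73.8 ± 43.9 CPM (SD, n = 21) in VIP, 37.6 in PYC, 28.5 in PV and 17.7 ± 10.7 CPM (SD, n = 21) in SST pools. Its log2 fold changes were 1.40 ± 0.26 (SE) in VIP (adjusted p = 1.2e-05) and -1.35 ± 0.30 (SE) in SST (adjusted p = 6.6e-04). VIP was not separated from PYC (adjusted p = 0.091). Kcnn3, another SK gene, was lower in PV pools (-2.06 ± 0.58 (SE), adjusted p = 0.0055). Kcnma1, the pore of the large-conductance (BK) channel, averaged 490.1 CPM in PYC, 404 in PV, 305 in SST and 287 in VIP pools, with PYC and PV each separated from SST and VIP and no other pair separated. Its auxiliary subunit gene Kcnmb2 stood at 0 CPM in the median PYC pool and averaged 26.3 ± 18.1 CPM (SD, n = 20) in PV, 18.5 in SST and 12.9 in VIP pools. PYC was separated from each of the other types, and no other pair was separated. The log2 fold changes were -4.04 ± 0.81 (SE) in PYC (adjusted p = 6.6e-05) and 2.12 ± 0.57 (SE) in PV (adjusted p = 0.0034). Neither call was made in old pools alone (adjusted p = 0.064 and 0.12).

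Among EAG, ERG and ELK genes Kcnh2, the ERG1 pore, was higher in PV (125 ± 41.8 CPM (SD, n = 20), log2 fold change 1.65 ± 0.18 (SE), adjusted p = 1.5e-13) and lower in PYC pools (23.1 ± 15.1 CPM (SD, n = 21), -1.68 ± 0.21 (SE), adjusted p = 1.4e-10). Kcnh7, the ERG3 pore, averaged 375 CPM in PYC and 375 in PV pools and was lower in SST pools (142 ± 50.9 CPM (SD, n = 21), -1.13 ± 0.14 (SE), adjusted p = 4.8e-10). VIP pools averaged 200 CPM and were not separated from SST pools (adjusted p = 0.062). PYC and PV pools were each separated from both SST and VIP pools. Kcnh1, an EAG pore, was higher in PYC (1.06 ± 0.18 (SE)) and lower in SST pools (-1.21 ± 0.20 (SE)), and Kcnh3, an ELK pore, was lower in PV pools (-1.01 ± 0.20 (SE)).

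Of the Kir genes, Kcnj3, a G-protein-gated Kir3 pore subunit, was higher in PV pools (262 ± 73.5 CPM (SD, n = 20), log2 fold change 1.25 ± 0.14 (SE), adjusted p = 1.0e-12), with 12 of 20 above all others. Its partner Kcnj9 averaged 199.97 CPM in PV and 105 in SST pools and was called in no type. Kcnj2, a strong inward rectifier, was higher in VIP pools (24.5 ± 18.005 CPM (SD, n = 21), 1.71 ± 0.54 (SE), adjusted p = 0.021), a call lost without the low-mitochondrial libraries (adjusted p = 0.051) and at either age alone. For Kcnj2 VIP was separated from PV and SST but not from PYC pools (16.03 CPM, adjusted p = 0.79). Kcnj10, known for its role in astrocytes, averaged 49.1 to 57.1 CPM with no pair separated, and 10 astrocyte markers summed to group means of 1928 to 3183 CPM. Single markers differed widely: Slc1a2, the highest of the 10, had type means of 1355 to 2105 CPM, and Gjb6, the lowest, 2.55 to 5.18 CPM. Among leak channels, Kcnk1 (1.29 ± 0.21 (SE), adjusted p = 2.1e-07) and Kcnk3 (1.51 ± 0.26 (SE), adjusted p = 1.3e-06) were higher in PV pools, and Kcnk3 was lower in PYC pools (-1.30 ± 0.29 (SE)). Kcnk2, the mechano- and lipid-sensitive TREK1, ran from 11.4 to 139 CPM with a median of 70.5 in SST pools and averaged between 27.05 and 37.6 CPM elsewhere. Its log2 fold change in SST was 1.22 ± 0.27 (SE) (adjusted p = 6.3e-04), a call that old pools alone did not give (adjusted p = 0.13). SST was separated from PV and VIP but not from PYC pools (adjusted p = 0.090). Kcnk4 was called lower in PV pools (-3.05 ± 1.05 (SE), adjusted p = 0.03), but in old pools alone its value was 0.46, the opposite sign. Its exons overlap those of Catsperz on the same strand.

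Kcnk6 and Kcnrg were called higher in PYC, Kcnrg higher and Kcnk6 lower in SST, and Kcnmb1 and Kcnj14 higher in VIP pools, yet all 4 had a count in fewer than 42 pools and their median was at most 0.439 CPM in any type. Kcnmb1 and Kcnj14 averaged above the floor of 1 CPM only in VIP pools, the type they were called higher in. Kcnk6 did so only in PYC (2.89 CPM) and VIP pools (1.43), and Kcnrg in all types but PV. Their calls are therefore not independent of the floor. In VIP pools Kcnmb1 averaged 6.102 ± 24.4 CPM (SD, n = 21), and 1 pool held 112 CPM. Groups of Kcnmb1, Kcnrg and Kcnk6 with no count leave their fitted folds without meaning as a size. Kcnq1ot1, a long antisense RNA over Kcnq1 and no channel subunit, averaged 437 to 527 CPM, and no pair was separated.

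Partners of the channels that are not in the Kcn families were compared in the same way. Of 15 listed genes, 14 were tested under the same adjusted p and fold limits. In PV pools 1 was higher (all genes 4.53%) and 1 lower (5.93%), and in PYC pools 0 (4.76%) and 2 (3.49%). In SST pools 0 were higher (3.85%) and 1 lower (1.24%), and in VIP pools 0 (6.42%) and 0 (1.46%). Lrrc38, a BK auxiliary subunit, averaged 23.8 CPM in PV and 0.0829 CPM in PYC pools, with log2 fold changes of 5.19 ± 0.71 (SE) and -6.25 ± 1.16 (SE). Cntnap2, which helps to cluster Kv1 channels on axons, was lower in PYC (-1.53 ± 0.13), and Lgi1, a secreted protein linked to Kv1 channels, was lower in PV pools (-1.14 ± 0.22). Abcc8, a sulfonylurea receptor subunit of ATP-sensitive channels, was lower in SST pools (-1.03 ± 0.34 (SE), adjusted p = 0.039).

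Old and young pools were compared within each type, and no member passed. The adjusted p was under 0.05 for 0 of 70 members in PYC, PV and SST pools, against 0% of all genes in each, and for 0 of 70 in VIP pools, against 1.21% of all genes. Before adjustment, 3 of 70 members had a p below 0.05 in PYC (all genes 7.58%), 3 in PV (9.01%), 3 in SST (7.8%) and 4 in VIP pools (8.15%). DESeq2 and limma-voom also gave 0 members in each type. Of the 225 genes called in VIP pools 219 were lower with age, as were 227 of 233 with RLE size factors, 122 of 129 with the library total as covariate and 230 of 235 without low-mitochondrial libraries. DESeq2 called 28 genes there (13 higher and 15 lower), the fit with the number after F in the titles 10 (5 and 5) and limma-voom 1. No gene was called under filterByExpr, among genes with a count in at least 42 pools, or without the 2 old VIP libraries high in Sst. In simulated counts the same tests found 5% to 8% of genes changed 2-fold and 24% to 25% of those changed 4-fold. These genes were drawn at random from all 18536 tested, of which 13292 had a count in at least 42 pools. Of the 70 members 61 had, so the shares do not measure how many changed members would be found, which was not simulated.

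None of the values that follow passed. Kcnab1 ran from 16.3 to 128 CPM with a median of 82.1 in old VIP and from 4.47 to 61.96 CPM with a median of 32.2 in young VIP pools, which overlapped, with a log2 fold change, old against young, of 1.32 ± 0.42 (SE) (adjusted p = 0.11). The fit of all 8 groups gave it an adjusted p of 0.030, the fit with no filter 0.020 and the one without low-mitochondrial libraries 0.048. Kcns2 in SST pools ran from 0 to 37.7 CPM with a median of 16.9 in old and from 28.02 to 67.4 CPM with a median of 38.1 in young pools (-1.32 ± 0.54 (SE), adjusted p = 0.37). Kcnv1 ran from 0 to 46.5 CPM with a median of 4.26 in old PV pools and from 13.9 to 65.9 CPM with a median of 17.3 in young ones (-1.56 ± 0.76 (SE), adjusted p = 0.51). Kcnq1ot1 was 0.31 ± 0.14 (SE) in PV and 0.25 ± 0.14 (SE) in SST pools, with adjusted p-values of 0.43 and 0.79. Kcnk4 in PV pools, with a count in 51 of 83 pools in all, ran from 0 to 21.3 CPM with a median of 0 in old and from 0 to 0.393 CPM with a median of 0 in young pools, which overlapped (5.99 ± 2.30 (SE), adjusted p = 0.20). Kcng2 in VIP pools, with a count in 46 pools, ran from 0 to 30.8 CPM with a median of 4.04 in old and from 0 to 1.51 CPM with a median of 0 in young pools (4.38 ± 1.95 (SE), adjusted p = 0.45). Kcna3 in PYC was 1.06 ± 0.66 (SE) (adjusted p = 0.92) and Kcnk3 in PV -0.57 ± 0.30 (SE) (adjusted p = 0.61).

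Members with a count in fewer than 42 pools had smaller p-values in places. The adjusted p was 0.064 for Kcnmb1 in PYC, 0.092 in SST and 0.11 in VIP pools, 0.092 for Kcnk6 in SST and 0.11 for Kcnrg in VIP. In each of these but Kcnmb1 in VIP 1 age had no count in any pool, so no fold is given. Kcnmb1 in VIP averaged 0.318 CPM in old and 13.8 CPM in young pools. In PYC pools the values were -4.92 ± 1.88 (SE) for Kcnh8 (adjusted p = 0.28), which turned to 1.77 without PYC young replicate 3, a pool with 17.2 CPM where the next young pool had 0, and 5.47 ± 2.09 (SE) for Kcnk13 (adjusted p = 0.28). None of the 14 tested partners passed in any type.

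**Figure D5:**
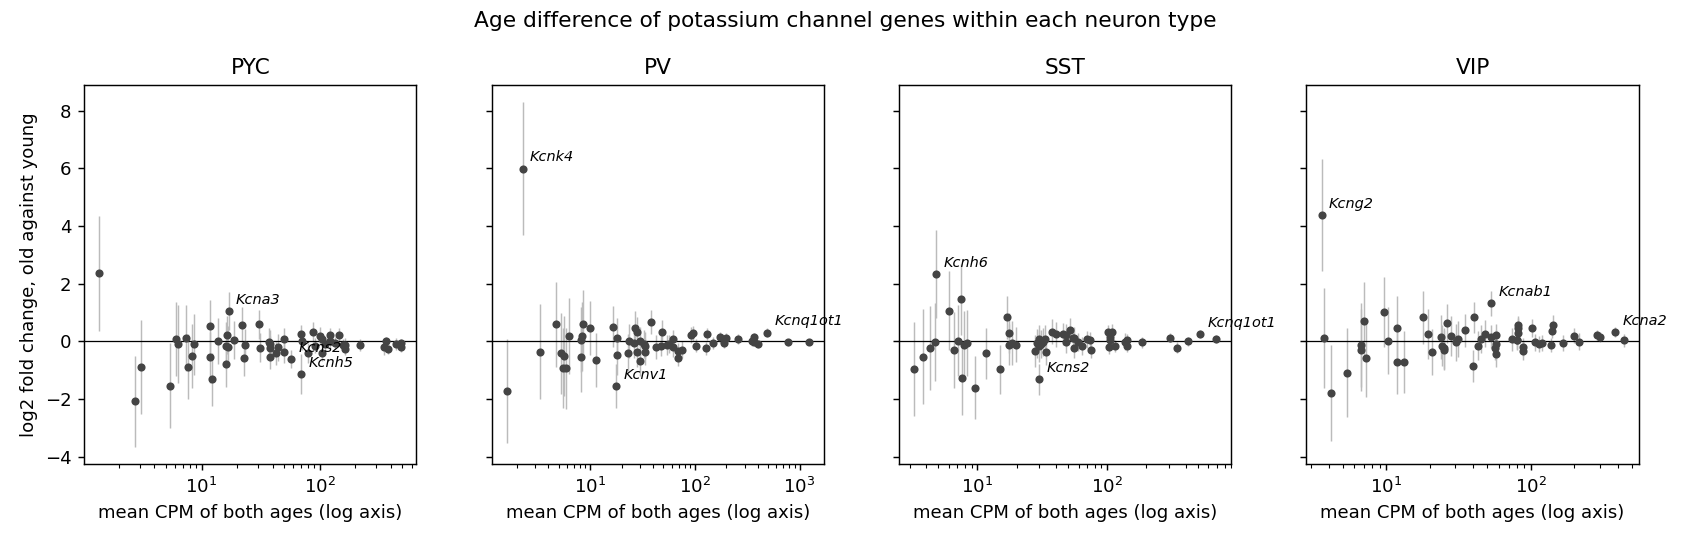
log2 fold change of old against young pools (vertical axis, bars are 1 SE) against mean CPM of both ages (log axis) for members reported singly that had a count in at least 42 pools, 1 panel for each type, with the 3 smallest p-values among them named. Most members above 100 CPM lie close to 0, and the wide values belong to members of low level.

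The age effect differed between types for 1 of 70 members, Kcnmb1 (adjusted p = 0.0035), against 3.47% of all genes. It had a count in 11 of 83 pools, 3 groups had none, and it was not called by DESeq2 or limma-voom. Of the types only VIP, at 6.10 CPM, averaged above the floor of 1 CPM, so the values that let Kcnmb1 in also entered the test. On simulated counts with no such difference the same test called 474 of 18536 genes, of which 9 were among the 13292 with a count in at least 42 pools. Kcnab1 was next (adjusted p = 0.070).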

How the data were processed

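The deposited table holds raw counts per Ensembl gene, not normalized by the authors. Per the labels' protocols, the library kit keeps strand and takes total RNA. The submitters' processing notes name HISAT2 and GRCm38. No source used here gives the counting tool, annotation or strand setting, so overlapping and antisense genes are uncertain. Symbols, coordinates and exon lengths are from GENCODE M21. CPM is relative to the library total.

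Type, pair and interaction tests used edgeR 4.0.16 (R 4.3.3), quasi-likelihood F-tests with robust estimation and TMM, in a fit of all 8 groups. Age was fitted within each type. Genes with a mean of at least 1 CPM (18536) were tested, 2-sided, with Benjamini-Hochberg adjustment over all of them. SE is from the F statistic. Fits were tested on simulated counts, in which the PV comparison made 296 false calls, 9 of them among the 13292 genes with a count in at least 42 pools.

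Genes, families, partners and the naming rule were chosen with earlier results of these data known. The naming rule took, per type, up to 6 called genes with the largest rise and 4 with the largest fall, up to 3 per direction for age by smallest p, the 8 highest levels and a fixed panel; other genes named here were picked after their values were seen. Alternatives were RLE size factors, filterByExpr (minimum count 10), no filter, DESeq2 1.42.0, limma-voom (limma 3.58.1), the number after F in the titles (not explained by the labels), the library total, leaving out libraries, 1 age alone and, chosen after seeing the data, genes with a count in at least 42 pools. The motifs and printed promoters were chosen with type calls known. Library numbers follow sample order and pair nothing. p-values measure the spread between pools. Single values of 3 members are not reported here; counts and sums cover all 70.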

Additional observations from a re-analysis of the deposited data

Results flagged for a closer look

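Single young pools stood apart from the rest of their group for 21 of 41 members examined, those named by the rule and reported singly. The gap of the highest or lowest pool to its neighbour, as a share of the group's range, was compared with Dixon's 95% critical value in 159 young groups, and 34 passed. Chance flags about 1 in 20 groups of normally distributed values, but the median of the group was 0 for 15 of the 34. The 34 are 21.4% of the member groups, against 32.97% over the young groups of all 18536 genes, and among groups with a median above 0 the shares are 13.8% and 20.1%. Of the 34, 6 lie in low-mitochondrial libraries (PYC young replicate 2 and VIP young replicates 1 and 3), and the part of that in the values was not tested. Old groups have 12 pools and were not examined.

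Kcnrg had 12.5 CPM in PYC young replicate 9 (next highest pool 5.12 CPM) and 19.3 CPM in SST young replicate 1 (next highest pool 1.62 CPM). Kcnv1 had 65.9 CPM in PV young replicate 2 (next highest pool 33.4 CPM). Kcnip3 had 33.03 CPM in PYC young replicate 2 (next lowest pool 111 CPM) and 164 CPM in VIP young replicate 4 (next highest pool 89.7 CPM). Kcnmb2 had 4.197 CPM in PYC young replicate 9 (next highest pool 0 CPM). Kcns3 had 133 CPM in PV young replicate 8 (next highest pool 87.5 CPM) and 39.98 CPM in PYC young replicate 5 (next highest pool 13.5 CPM) and 65.6 CPM in VIP young replicate 5 (next highest pool 12.04 CPM). Kcnab3 had 108 CPM in VIP young replicate 9 (next highest pool 43.01 CPM). Kcnk13 had 41.7 CPM in PV young replicate 8 (next highest pool 12.03 CPM) and 0.732 CPM in PYC young replicate 7 (next highest pool 0.121 CPM). Kcna3 had 111 CPM in SST young replicate 7 (next highest pool 58.9 CPM). Kcnmb1 had 18.001 CPM in PYC young replicate 5 (next highest pool 0.127 CPM) and 112 CPM in VIP young replicate 2 (next highest pool 9.88 CPM). Kcnh8 had 17.2 CPM in PYC young replicate 3 (next highest pool 0 CPM) and 21.8 CPM in VIP young replicate 2 (next highest pool 3.43 CPM). Kcnk4 had 0.393 CPM in PV young replicate 1 (next highest pool 0.124 CPM) and 27.6 CPM in VIP young replicate 1 (next highest pool 11.1 CPM).

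Kcns2 had 32.05 CPM in PV young replicate 7 (next highest pool 13.1 CPM). Kcnk3 had 121 CPM in VIP young replicate 3 (next highest pool 54.04 CPM). Kcnab2 had 443 CPM in VIP young replicate 3 (next highest pool 321 CPM). Kcnj14 had 2.496 CPM in PV young replicate 3 (next highest pool 0.0902 CPM) and 1.64 CPM in PYC young replicate 5 (next highest pool 0.293 CPM) and 6.56 CPM in SST young replicate 8 (next highest pool 0.479 CPM) and 33.8 CPM in VIP young replicate 9 (next highest pool 12.1 CPM). Kcna2 had 1669 CPM in PV young replicate 2 (next highest pool 1297 CPM) and 116 CPM in VIP young replicate 8 (next lowest pool 293 CPM). Kcng2 had 27.2 CPM in SST young replicate 2 (next highest pool 6.11 CPM) and 1.51 CPM in VIP young replicate 1 (next highest pool 0.686 CPM). Kcnma1 had 684 CPM in PV young replicate 6 (next highest pool 428 CPM). Kcnd2 had 202 CPM in PYC young replicate 8 (next highest pool 107 CPM). Kcnn2 had 103 CPM in PYC young replicate 6 (next highest pool 57.3 CPM). Kcnj9 had 392 CPM in PYC young replicate 2 (next highest pool 219 CPM).

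The edgeR interaction test called a difference between types in the age effect of Kcnmb1 (adjusted p = 0.0035). DESeq2 and limma-voom did not. Its mean was 6.10 CPM in VIP pools and at most 0.863 CPM in the other types. It thus passed the floor of 1 CPM through VIP pools, whose values also entered the test. The value of 112 CPM in VIP young replicate 2 belongs to the same gene.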

How the results depend on the processing

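No paired analysis was possible because the library numbers follow sample order and the labels tie no library to a mouse. Of the counts, 139 stayed within 1.5 times over the alternatives other than leaving out single libraries, and 21 did not. Members higher in PYC were 8, against 18 with limma-voom (all genes 4.25%), 4 in old pools alone (3.12%) and 14 in young pools alone (3.46%). Members lower in PV were 12, and 7 in young pools alone (4.18%). Members higher in SST were 4, and 2 in old pools alone (2.79%). Members higher in VIP were 8, and 5 in old (3.74%) and 5 in young pools alone (5.47%). Members lower in VIP were 2, and 1 with RLE size factors (1.35%) and 1 in old pools alone (1.16%). Age calls were 0, and with no filter 1 in PYC (all genes 20.4%), 2 in SST (18.5%) and 3 in VIP (21.4%). In VIP 1 was also called without low-mitochondrial libraries (all genes 1.27%) and in the fit of all 8 groups (211 of all 18536 genes). Leaving out each VIP library gave 0 to 1, the 1 without VIP old replicate 2, and the shares of all genes in these fits are not given here. Members with a different age effect were 1, against 0 under filterByExpr, DESeq2, limma-voom and the limit of 42 pools, 3 with no filter (all genes 19.1%), and 2 with the library total as covariate (3.5%) and 2 without low-mitochondrial libraries (3.36%). Signs turned for the age value of Kcnh8 in PYC (0.37 with DESeq2, and -6.69 to 1.77 when leaving out each library, the highest without PYC young replicate 3), Kcnk6 in PV (0.46 with the F number), the PV value of Kcnk4 (0.46 in old pools alone) and the SST value of Kcnrg (-0.39 with DESeq2). The cause was not tested, except that 1 age alone has fewer pools. A CPM floor of 0.5 gave 83 members and one of 2 gave 64. Of 425 enrichment values 38 lost their call, 23 of them with 1 age alone. The search for outlying pools was at one point limited to members with a count in at least 42 pools, which gave 22, and was widened again to all 41.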
